A study of Homo sapiens with 6 samples.

Results

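The data described here are the gene counts of the control TC71 cells, that is, the 3 shNTC+Dox libraries among the 6 libraries of the series. They were chosen by their label alone, a doxycycline-inducible short hairpin RNA with no target (shNTC), and the other 3 libraries, in which the hairpin targets EHD1, enter no value. The question addressed is what these cells expressed before any knockdown is considered: the level of each gene, its rank among all genes, and how far 3 libraries of the same state differed.

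TC71 is an established human Ewing sarcoma cell line. The control cells carried a lentiviral vector that encodes the non-targeting hairpin and GFP, were kept as a selected polyclonal population, and had received doxycycline at 0.5 µg/ml for 3 days before total RNA was taken, so that all 3 libraries share the vector, the selection and the drug, and the levels are those of engineered, drug-exposed cells in culture. Nothing in the labels says whether the 3 replicates were separate cultures, and the spread between them may in part be technical. The mRNA libraries were made with a poly(A) kit that does not keep strand, so reads from a gene and from an antisense partner cannot be told apart.

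Ewing sarcoma is a tumour of bone and soft tissue driven by a fusion of EWSR1, an RNA-binding protein of the FET family, with an ETS transcription factor, most often FLI1. The fusion protein binds GGAA repeats, opens chromatin there and switches on genes such as NR0B1, and it holds down genes of the mesenchymal programme. The paper lists TC71 as a line with a type I EWS-FLI1 fusion, built of portions of both genes. A gene-level count cannot separate a fusion transcript from the transcripts of the partner genes, so no level of the fusion itself is given. Reads of a fusion transcript fall on part of each partner's exons, while levels per kb use the whole exon length.

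The 3 libraries held 26528902, 28203023 and 22711235 counts for replicates 1, 2 and 3, and values are given in this order throughout. Levels are counts scaled by TMM to a library of 1000000 (CPM), and levels of different genes are compared as CPM per kb of annotated exon, except in orders and sums said to be by CPM, which do not account for length. At this depth a gene with no count in a library could still have been at up to 0.113, 0.107 and 0.13 CPM (3 counts), for counting error only. Of 60676 listed genes, 28187 had a count in at least 1 library and 14172 reached a mean of 1 CPM, the level called expressed below. Among protein-coding genes 12150 of 19892 did so, or 61.1%, which is the background for the same count in any gene list, and 26.9% had 3 counts or fewer in every library. Long non-coding RNAs reached 1 CPM in 1154 of 16739 cases and pseudogenes in 721 of 15182.

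Replicate 3 stood apart from the other two. The biological coefficient of variation, the spread between libraries beyond counting noise as edgeR estimates it, was 14.6% over 3 libraries and 7.8% without replicate 3. Of the 14172 expressed genes, 17.7% (2506) had a highest library at least 1.5 times the lowest, against 4.25% (603 of 14178) with replicates 1 and 2 alone. A range over 3 libraries cannot be narrower than one over 2 of them. The pairs with replicate 3 gave 12.7% (1802 of 14144, without replicate 1) and 12.6% (1785 of 14168, without replicate 2). At a mean of 10 CPM or more, 6.44% (636 of 9882) had such a range over 3 libraries. Across expressed genes, Pearson's r of log2(CPM + 1) was 0.993 for replicates 1 and 2, 0.984 for replicates 1 and 3 and 0.983 for replicates 2 and 3, a description over genes, which are not independent.

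The 5 markers of Ewing sarcoma cells were all expressed, and 4 of them lay above percentile 90 of protein-coding genes per kb. STEAP1, a membrane protein of the cell surface (ENSG00000164647, chromosome 7 from 90154456 to 90164829), measured 198, 203 and 213 CPM. NR0B1, a nuclear receptor that is a direct target of the fusion (ENSG00000169297, chromosome X from 30304206 to 30309390), measured 202, 204 and 153 CPM. PRKCB, a protein kinase C (ENSG00000166501, chromosome 16 from 23835983 to 24220611), measured 555, 546 and 494 CPM. These 3 were high in every library, and NR0B1 was lowest in replicate 3. CD99, the surface glycoprotein used to diagnose the tumour (ENSG00000002586, chromosome X from 2691187 to 2741309), measured 237, 242 and 213 CPM, and NKX2-2, a homeodomain repressor (ENSG00000125820, chromosome 20 from 21511017 to 21514064), measured 13.4, 14.2 and 16.9 CPM. NKX2-2 was the lowest of the markers, and 43.9% of its exon bases also belong to another annotated gene. Per kb of exon the order was STEAP1 (132 ± 4.81, SD, n = 3), NR0B1 (93.5 ± 14.4), PRKCB (48.1 ± 2.98), CD99 (47.5 ± 3.24) and NKX2-2 (6.99 ± 0.88). PRKCB and CD99 overlapped between libraries, and the other neighbours in this order did not. Coordinates are those of GENCODE 44 on GRCh38.

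The stretches just before the RefSeq start sites of the top 2 markers are shown because GGAA is the core that ETS factors read. Each runs over the 250 bases before the start on GRCh38.p14, 5′ to 3′ on the gene's strand, with GGAA and its complement TTCC in capitals. The NR0B1 stretch is chrX:30309391-30309640, minus strand, and that of STEAP1 is chr7:90154219-90154468, plus strand.
NR0B1: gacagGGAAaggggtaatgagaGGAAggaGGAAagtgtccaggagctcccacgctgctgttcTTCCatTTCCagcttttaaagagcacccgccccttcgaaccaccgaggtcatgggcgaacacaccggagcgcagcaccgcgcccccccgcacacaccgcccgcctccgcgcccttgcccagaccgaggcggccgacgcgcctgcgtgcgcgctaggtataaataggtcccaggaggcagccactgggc
STEAP1: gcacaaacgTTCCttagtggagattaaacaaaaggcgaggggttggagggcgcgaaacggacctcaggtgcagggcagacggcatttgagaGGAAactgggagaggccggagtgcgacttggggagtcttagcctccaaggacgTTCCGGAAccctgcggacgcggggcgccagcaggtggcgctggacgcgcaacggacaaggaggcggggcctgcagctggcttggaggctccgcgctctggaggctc
In the 300-base window that adds 50 bases after the start, NR0B1 held 5 such cores, STEAP1 4 and PRKCB, the third marker in order, 0, counted on both strands, beside a median of 3 over all 11120 protein-coding genes with a single RefSeq start. CD99 and NKX2-2 were not among these genes. The tandem GGAAGGAA, searched on both strands, was in none of the 19 windows that could be matched for the 40 genes of the activated list and in 3.61% of all 11120. This says only that these letters were not in these windows.

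Markers of 12 other cell lineages were low or not detected. Of 68 such genes 17 were expressed, or 25% beside 61.1% of protein-coding genes. None of them reached 100 CPM, beside 11.2% of protein-coding genes, and 31 (45.6%) had 3 counts or fewer in every library, beside 26.9%. All 5 endothelial markers (PECAM1, VWF, CDH5, KDR and TEK) had no count in any library, as had the muscle regulators MYOD1, MYOG and MYF5, the noradrenergic neuroblast genes PHOX2A, TH and DBH, the B- and T-cell genes MS4A1 and CD3E, and the neural crest regulator SOX10. The markers above 10 CPM came from several lists. They were the intermediate filament genes NEFL (34.7, 37.4 and 32.6 CPM) and NEFM (11.2 CPM on average) of neurons, KRT18 (27, 24.3 and 23.2) of simple epithelia, ALPL (22.5) of osteoblasts, COL1A1 (22.5, 18.3 and 13.8) of fibroblasts, PAX6 (12.6), and ISL1 (13.3, 12.5 and 13) and HAND2 (10.9, 11.9 and 10.8), transcription factors of sympathetic precursors. In none of the 12 lists were more than 50% of the genes expressed.

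Of the FET family, EWSR1 measured 305, 287 and 323 CPM and TAF15 161, 158 and 163. Per kb of exon EWSR1 stood at 29.5 ± 1.73 and TAF15 at 11.8 ± 0.178 (SD, n = 3), and they did not overlap between libraries. Among 27 ETS factors, 15 were expressed (55.6%, beside 61.1% of protein-coding genes) and 9 had 3 counts or fewer in every library, beside 26.9%. The highest per kb were ELK1 (131, 132 and 117 CPM), ERF (94.5, 93.4 and 109.7), a repressor, and ELF1 (67.9, 68.2 and 72.1), which are not the partners of the fusion. FLI1 measured 57.3, 52.8 and 82.2 CPM and lay at percentile 74.8 per kb, with its highest value in replicate 3, at 1.56 times the lowest, and replicates 1 and 2 differed by 1.08-fold. Its relatives ERG, ETV4, EHF, ELF3, ELF5, ETV7, SPIB and SPIC had no count, ETS1 had 3 counts or fewer in each library, and FEV, a serotonergic ETS factor, measured 5.03, 5.52 and 12. Of its own subfamily of FLI1, ERG and FEV, FLI1 was the highest per kb.

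The 40 genes listed as activated by EWSR1-FLI1 were mostly expressed and high. In total 37 reached 1 CPM, or 92.5% beside the 61.1% of all protein-coding genes, and 18 reached 100 CPM, a level that 11.2% of protein-coding genes reached. Their median percentile per kb was 88.9, and 18 were above percentile 90. The list was drawn up from general knowledge of the fusion with earlier results of these libraries known, so its height is a description of these cells.

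Per kb the list was led by ITM2A, a membrane protein, at 880.5, 889 and 618 CPM. CCND1, the G1 cyclin D1, followed at 1332, 1323 and 1428 and CAV1, the coat protein of caveolae, at 875, 878 and 1027. ITM2A was lower in replicate 3 than in both others, and CCND1 and CAV1 were higher. STEAP1 and NR0B1, given above among the markers, came next per kb. After them stood NPY1R, a receptor of neuropeptide Y, at 222, 229 and 255, KDSR, an enzyme of sphingolipid synthesis, at 522, 534 and 525, and ID2, an inhibitor of helix-loop-helix factors, at 103, 109 and 124. KDSR differed between libraries by far less than the other two. Of the developmental regulators, SOX2 measured 53.4, 57.1 and 59.6, PAX7 155, 149.5 and 129 and BCL11B 56.2, 61.5 and 64.9. All 3 factors, of early neural, muscle or lymphoid lineages, were above 50 CPM in every library.

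At the other end of the list, the peptide hormone gene CCK measured 0.416, 0.179 and 0.521 CPM and UPP1, a uridine phosphorylase, 0.605, 0.645 and 0.478, both below 1 CPM. CNMD, a cartilage glycoprotein, was the lowest, with 3 counts or fewer in every library. TERT, the telomerase protein, measured 8.89, 6.7 and 9.17 and GLI1, a Hedgehog pathway factor, 13.2, 10.9 and 9.78. IGF1, the ligand of IGF1R, measured 24.6, 27.3 and 15.1, and PAPPA, a protease of IGF-binding proteins, 47.6, 49 and 28.6. Both of these last genes were lowest in replicate 3. They and CALCB, a calcitonin gene-related peptide (4.31, 4.98 and 6.91), were the 3 of 37 expressed members with a range of at least 1.5-fold, which 14.1% of expressed protein-coding genes had over 3 libraries. None of the 37 had it without replicate 3, against 3.24% of expressed protein-coding genes. All expressed members but NPY5R, TERT and CALCB had a mean of 10 CPM or more. Of all genes at that level 6.44% had a 1.5-fold range over 3 libraries.

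**Figure D1:**
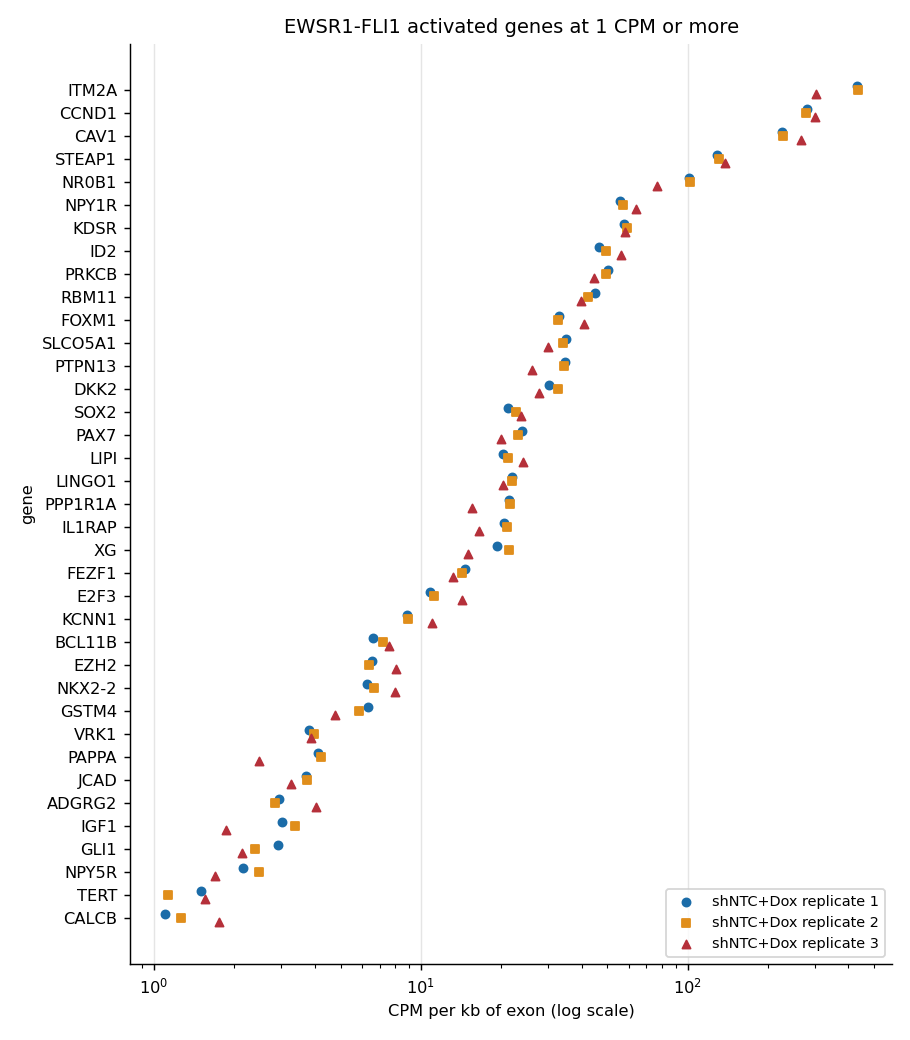
Level of the 37 expressed genes of the EWSR1-FLI1 activated list in each shNTC+Dox library, as CPM per kb of exon on a log axis, ordered by mean, with 1 symbol for each replicate. ITM2A, CCND1 and CAV1 stand at the top and CALCB at the bottom, and replicate 3 (triangles) often lies off the other two.

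Genes that the fusion is known to hold down, with other mesenchymal genes, lay as a group near the middle of all protein-coding genes. Of 25 genes 17 were expressed, or 68% beside 61.1% of protein-coding genes, 5 had 3 counts or fewer in every library, a share of 20% beside 26.9%, and the median percentile per kb was 49.1. The adhesion receptor CD44, the Wnt inhibitor DKK1, the cytokine IL6, the matrix protein POSTN and IGFBP3, a binding protein of IGF ligands, had no count in any library. THBS1 measured 0.378, 0.179 and 0.304 CPM and COL1A2 0.189, 0.466 and 0. Not all were low: COL3A1, a fibrillar collagen, measured 201, 209 and 166, ITGA5, the fibronectin receptor subunit, 150.2, 147 and 99.4, and ZYX, a focal adhesion protein, 68.4, 71.7 and 48.9. S100A4, a calcium-binding protein of motile cells, was the highest per kb at 50.9, 49.8 and 19.4. Each of these 4 was lowest in replicate 3. In this list 8 of the 17 expressed genes had a 1.5-fold range over 3 libraries (background 14.1%), and 1 did without replicate 3 (background 3.24%).

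The most abundant nuclear gene by CPM was EEF1A1, which carries aminoacyl-tRNA to the ribosome, at 17122, 16533 and 12790.4 CPM. It was followed by EEF2, the translocation factor, at 4520.0, 4548 and 3543, and by RPLP0, a protein of the ribosomal stalk, at 4387, 4481 and 3486. All 3 serve protein synthesis, and all 3 were lowest in replicate 3. RPL4 (3375 CPM on average), GAPDH (3390.3), HSP90AA1 (3351), ENO1 (3056), PABPC1 (2855), RPL13A (2614) and TUBB (2577) completed the first 10. Per kb of exon the first was FTL, the light chain of the iron store ferritin, at 1849 ± 257 (SD, n = 3), then EEF1A1, RPS12, GAPDH, EEF2, RPLP0, RPL41, RPS2, EEF1G and RPS18. EEF1G shares 2632 of its 2639 exon bases with another annotated gene, so how its reads were divided is uncertain. The 100 most abundant genes took 19.5 ± 0.505% of the counts (SD, n = 3), and 975, 961 and 994 genes were needed to reach 50% of them.

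The 86 genes matched as cytosolic ribosomal proteins took 7.74, 7.81 and 6.88% of all counts. Of these, 84 were expressed and 80 were above 100 CPM. Those not expressed were the tissue-restricted copies RPL3L (0.227, 0.537 and 0.261 CPM) and RPL10L, which had no count. The 34 translation factors were all expressed, led per kb by EEF1A1, EEF2 and EEF1G, and EIF3F was the lowest per kb at 210.0, 211 and 217 CPM. Ribosomal protein genes have many processed pseudogenes, and reads may have been divided among near-identical copies.

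Transcripts of ribosomal proteins and elongation factors are known to begin with a C followed by a run of pyrimidines, the 5′ terminal oligopyrimidine tract, through which growth signals control their translation. The start sites of the 6 ribosomal protein genes and the 2 translation factor genes that were highest by CPM, among those with a single RefSeq start, are shown with GAPDH for contrast. Each line gives the 10 bases before the start and the first 20 of the transcript on GRCh38.p14, 5′ to 3′, with the pyrimidines that open the transcript in capitals.
EEF1A1: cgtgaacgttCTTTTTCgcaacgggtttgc
EEF2: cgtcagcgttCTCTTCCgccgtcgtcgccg
RPLP0: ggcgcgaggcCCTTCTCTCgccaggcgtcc
RPL4: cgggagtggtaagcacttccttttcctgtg
RPL13A: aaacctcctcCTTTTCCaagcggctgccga
RPL3: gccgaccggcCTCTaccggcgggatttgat
RPS6: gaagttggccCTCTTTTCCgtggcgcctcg
RPSA: tgccgcctgtCTTTTCCgtgctacctgcag
GAPDH: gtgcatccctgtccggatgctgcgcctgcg
The stretches are chr6:73521013-73521042, minus strand for EEF1A1, chr19:3985444-3985473, minus strand for EEF2, chr12:120201092-120201121, minus strand for RPLP0, chr15:66504836-66504865, minus strand for RPL4, chr19:49487598-49487627, plus strand for RPL13A, chr22:39319604-39319633, minus strand for RPL3, chr9:19380217-19380246, minus strand for RPS6, chr3:39406710-39406739, plus strand for RPSA and chr12:6535254-6535283, plus strand for GAPDH. RPL4 and GAPDH open with a purine at the listed start, and RPL3 opens with a run of 4 pyrimidines. A start of C and at least 4 further pyrimidines, read on the transcript's strand only, was found in 42 of 57 matched ribosomal protein genes (73.7%) and in 9 of 21 translation factor genes (42.9%), beside 4.67% of all 11120 genes. Of the 54 matched nuclear respiratory chain genes 6 had it, and of the 26 proteasome genes none.

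Transcripts of the mitochondrial genome took 3.57, 3.88 and 4.04% of the counts. All 13 of its mRNAs were above 100 CPM, and per kb all lay among the first 23 protein-coding genes. MT-CO2 measured 3014, 3275 and 3435 CPM, MT-CO1 5706, 6666 and 7407 and MT-CO3 2927, 3233 and 3667, all subunits of cytochrome c oxidase. Each was lowest in replicate 1 and highest in replicate 3. MT-ND6, the one mRNA encoded on the light strand, was the lowest per kb at 357, 398 and 595. Strand was not kept, so reads of opposite-strand transcripts over MT-ND6 could also count for it. Of 78 nuclear genes of the respiratory chain, 77 were expressed at a median percentile of 95.3, led per kb by ATP5F1B (1971, 2006 and 1690.1), NDUFS5 (128, 129.6 and 125) and COX8A (108, 107 and 105). Of these nuclear genes 1 of 77 had a 1.5-fold range over 3 libraries, beside 14.1% of expressed protein-coding genes. Among all genes at a mean of 10 CPM or more the share was 6.44%. In replicate 3, 49 of the 77 were lowest, as were 46.5% of expressed protein-coding genes.

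All 17 glycolytic genes were expressed. GAPDH measured 3407, 3426 and 3338 CPM, ENO1, the enolase, 2989.8, 2992 and 3186 and LDHB, the heart-type lactate dehydrogenase subunit, 1659.6, 1674 and 1595. LDHA, the muscle-type subunit, stood below LDHB per kb and measured 894, 904 and 1014. Per kb hexokinase was mostly HK2 (103, 102 and 127), since HK1 measured 6.65, 9.03 and 6.73, the lowest of the list per kb. The brain isozymes ENO2 (25, 19.99 and 12) and ALDOC (13.1, 14.5 and 4.91) were low, and both were lowest in replicate 3.

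Of 25 chaperones all were above 100 CPM and above percentile 90 per kb. HSP90AB1 measured 1941, 1981 and 2011 CPM, HSP90AA1 3234, 3285 and 3533 and HSPA8 1573, 1547 and 2028. The stress-inducible HSPA1A (35.2, 36.3 and 50.9) and HSPA1B (30.6, 30.3 and 46.4), which share most of their sequence, stood far below these per kb. Of 37 proteasome genes 36 were expressed. PSMB5, PSMB1 and PSMB4 led per kb, at 242, 268 and 208 CPM on average. PSMB5 is a catalytic subunit of the constitutive particle. Of the subunits specific to the immunoproteasome, PSMB8, which takes the place of PSMB5, measured 1.74, 1.54 and 1.69, PSMB9 0, 0.322 and 0.174 and PSMB10 6.47, 8.49 and 9.08. Per kb PSMB10 (4.93 ± 0.843, SD, n = 3) was the highest of these and stood far below PSMB5 (156 ± 3.61), and 39.4% of the exon bases of PSMB10 also belong to another annotated gene. Of the cytoskeleton, TUBA1B, TUBB and ACTG1 led at 2545, 2577 and 2532 CPM, VIM, the intermediate filament of mesenchymal cells, measured 1598, 1645 and 1689, and the neuronal tubulin TUBB3 was the lowest per kb at 40.8, 45.5 and 57.8.

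**Figure D2:**
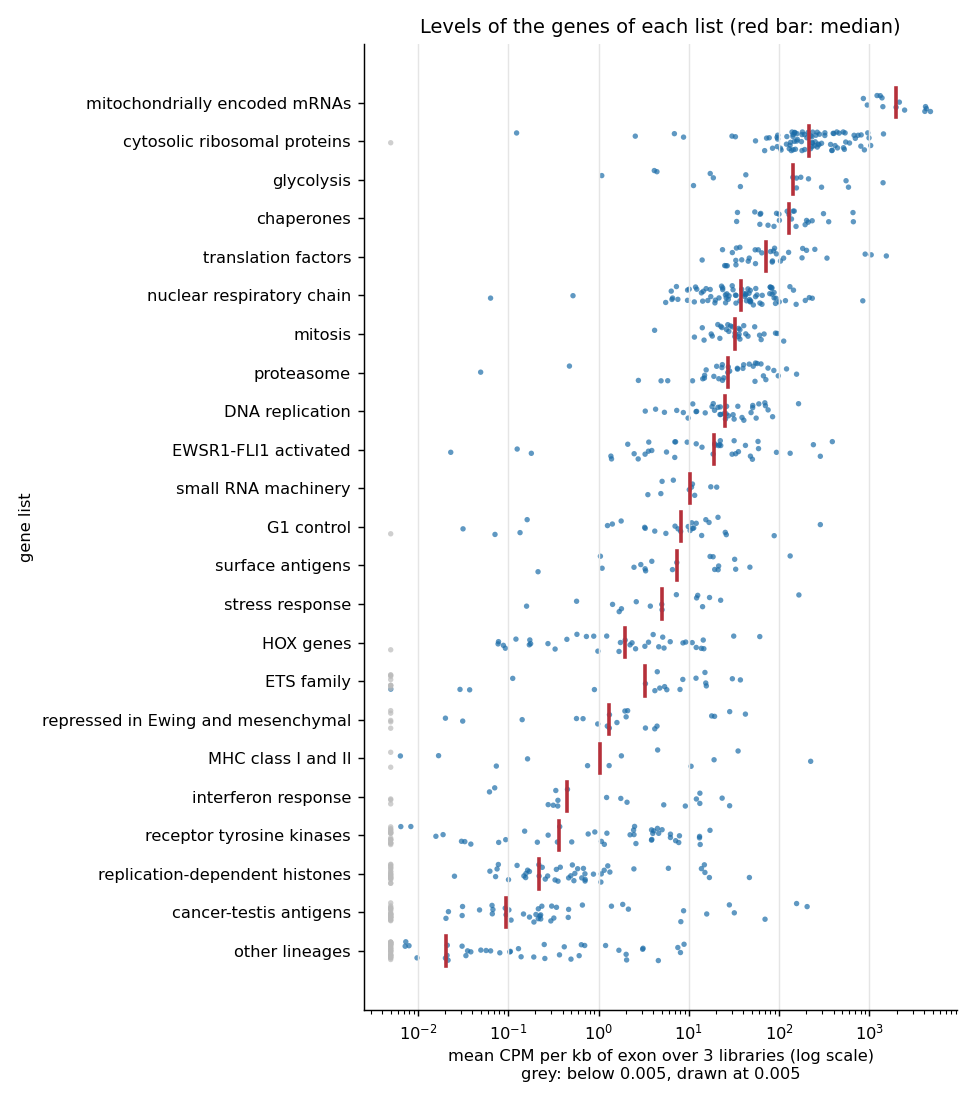
Mean level of each gene over the 3 libraries, as CPM per kb of exon on a log axis, by gene list, with 1 point a gene, a red bar for the list's median and grey points for genes below 0.005. Mitochondrial mRNAs and ribosomal proteins lie at the top, the EWSR1-FLI1 activated list lies above the repressed list, and markers of other lineages lie at the bottom.

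Genes of proliferation were expressed without exception. All 37 DNA replication genes and all 32 mitosis genes reached 1 CPM, at median percentiles of 92.2 and 94.3. PCNA, the sliding clamp, measured 208, 204 and 279 CPM, MCM3, a helicase subunit, 289.9, 285 and 350.1 and TK1, thymidine kinase, 123, 129 and 167. CDC20, an activator of the anaphase-promoting complex, measured 221, 215 and 243, TPX2, a spindle assembly factor, 323, 338 and 372 and CCNB1, cyclin B1, 209.8, 215 and 241. All 6 genes were highest in replicate 3. LIG1 (39, 35.3 and 37.8) was the lowest replication gene per kb and CDC25C (14.1, 14.7 and 12.9) the lowest mitotic one.

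In the control of G1, D-type cyclins were represented by CCND1 at 1332, 1323 and 1428 CPM. CCND3 measured 42.5, 44.6 and 34.5, and CCND2 had no count in any library. The kinase partner CDK4 measured 272, 264 and 282 and CDK6 2.04, 1.22 and 2.69, so that CDK4 was the higher, per kb at 88.2 ± 2.93 against 0.162 ± 0.0604 (SD, n = 3). The inhibitors at the 9p21 locus were near the floor, with CDKN2A at 0.151, 0 and 0.217 and CDKN2B at 0.34, 0.43 and 0.0869, while their neighbour MTAP measured 15.8, 17.3 and 21.7. CDKN2C, an inhibitor of the same family at another locus, measured 57.9, 60.9 and 71.7, and RB1, the retinoblastoma protein, 89.8, 86.3 and 91.7.

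Replication-dependent histone mRNAs, which end in a stem-loop in place of a poly(A) tail, were mostly low or not detected in these poly(A) libraries. Of 64 such genes 14 were expressed (21.9%, beside 61.1% of protein-coding genes) and 26 had 3 counts or fewer in every library, beside 26.9%. H2BC12 measured 24, 22 and 23.5 CPM, H2AC6 30.5, 34.1 and 19.99 and H4C9 6.05, 5.3 and 6.6, the highest per kb. Many of their promoters carry a TATA box, and it is shown in capitals for the 3 highest that do, over 30 bases that end 16 bases before the RefSeq start on GRCh38.p14, 5′ to 3′.
H2AC6: ccccaggaactaccTATAAAagcggccatg
H3C10: ttcagactctcacTATAAAtaagcggctag
H2AC11: cgcccaatagtgttTATAAAaagcgccgcc
The stretches are chr6:26124127-26124156, plus strand for H2AC6, chr6:27810006-27810035, plus strand for H3C10 and chr6:27132998-27133027, plus strand for H2AC11, and the motif begins 31, 32 and 31 bases before the start. TATAAA on the gene's strand within 50 bases before the start was found in 31 of 55 matched histone genes (56.4%), beside 4.79% of all 11120 genes.

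Of 58 receptor tyrosine kinases 32 were expressed, or 55.2% beside 61.1% of protein-coding genes. Of the 58, 18 had 3 counts or fewer in every library, beside 26.9% of protein-coding genes. A mean of 100 CPM was reached by 3, beside 11.2%. The ephrin receptor EPHA3 measured 128, 122 and 89 CPM, PTK7, a Wnt co-receptor, 126, 125 and 109 and EPHB4 83.4, 81.9 and 88.6. These were the highest per kb. EPHA3 was lower in replicate 3 than in the others, and so was PDGFRB (112, 105 and 64), the receptor of PDGF-B. EGFR, TEK, TIE1 and ROS1 had no count in any library, and PDGFRA (0, 0 and 0.13) had 3 or fewer.

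IGF1R, the receptor of insulin-like growth factors on which Ewing cells are known to depend, measured 113, 114 and 102 CPM, and INSR, the insulin receptor, 7.34, 9.6 and 8.04. IGF1 measured 24.6, 27.3 and 15.1 and IGF2 0.265, 0 and 0. IRS2, an adaptor below the receptors, was the highest gene of the axis per kb at 161, 160.1 and 186, and IRS1 measured 70.5, 73.6 and 41.8. Binding proteins differed widely in level, from IGFBP2 (100.1, 105 and 59.5) and IGFBP4 (27.3, 25.6 and 52.4) to IGFBP1 and IGFBP3, with no count. Of the 12 expressed genes of the axis 6 had a 1.5-fold range over 3 libraries and none without replicate 3, beside 14.1% and 3.24% of expressed protein-coding genes. In the EHD family of endocytic recycling proteins, EHD4 measured 39.5, 39.8 and 32.5, EHD1 27, 27.8 and 25.6, EHD2 5.67, 5.45 and 4.78 and EHD3 1.78, 1.47 and 1.78. Per kb the order was the same, from EHD4 down to EHD3.

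All 19 surface antigens were expressed. Beside STEAP1 and CD99, the organic anion transporter family member SLCO5A1 measured 347, 338 and 297 CPM and was the third per kb. IL1RAP, an accessory chain of the interleukin-1 receptor, measured 229.6, 236 and 184, and MCAM, an adhesion molecule, 1.81, 1.65 and 1.3, the lowest of the list. B4GALNT1 (27.3, 22.1 and 29.2) and ST8SIA1 (16.5, 13 and 16.1), enzymes that make the ganglioside GD2, were both present. Of the neuropeptide genes, GRP, gastrin-releasing peptide, measured 100.3, 93.7 and 90.8, NPY1R 222, 229 and 255 and SCG2, a granin, 32.5, 31.2 and 27.1. Their partners were not detected: GRPR, the receptor of GRP, and NPY, the ligand of NPY1R, had no count in any library, and neither had CALCA or CCKBR.

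HOX genes, which give cells their position along the body axis, were expressed from all 4 clusters, with the highest summed CPM from HOXD. By number of expressed genes HOXB led, with 9 of 10 against 7 of 9 in HOXD. The summed level was 569, 575 and 538 CPM over 39 genes, of which 28 were expressed (71.8%, beside 61.1% of protein-coding genes). HOXD13, the most distal gene of its cluster, measured 143, 154 and 146 CPM, HOXD10 82.8, 78.2 and 73.4 and HOXB13 50.5, 46.3 and 37. These were the highest per kb, and the HOXD cluster held 323 ± 8.23 CPM of the sum, without regard to length (SD, n = 3). HOXB held 120.4 ± 13.8, HOXC 87.2 ± 2.03 and HOXA 30.1 ± 3.63. The order of the cluster sums was the same in each library. HOXA10 (18, 19.6 and 21.6) was the one HOXA gene above 10 CPM, HOXB1 had no count, and HOXD12, between HOXD13 and HOXD11 in the genome, measured 0.567, 0.86 and 1.13.

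**Figure D3:**
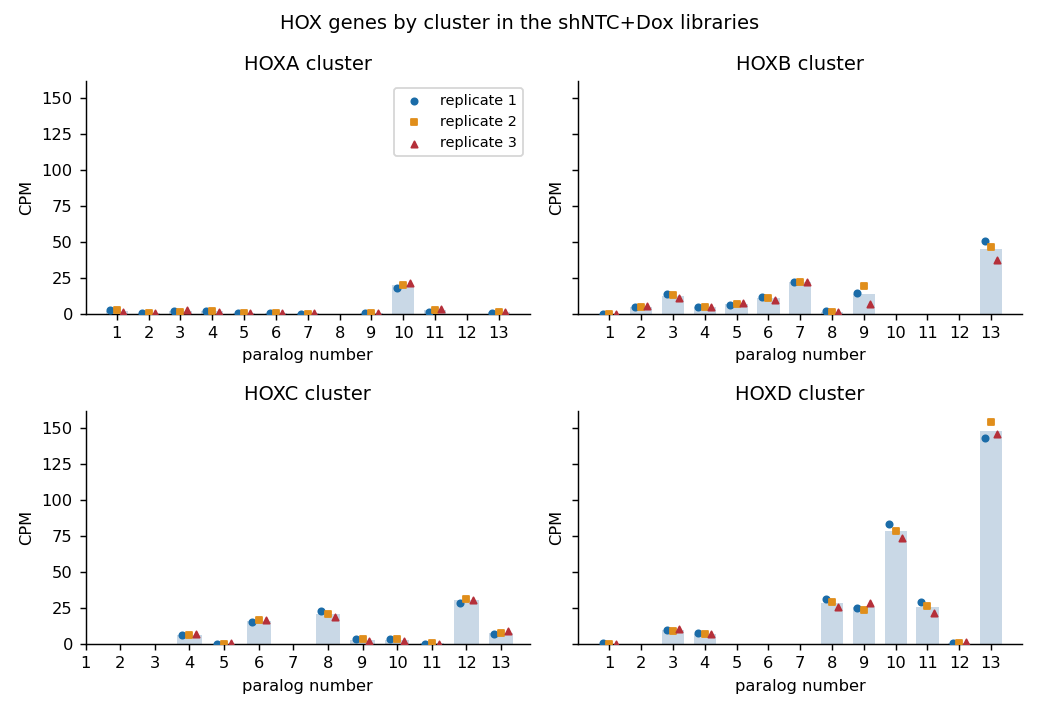
CPM of the HOX genes by cluster and paralog number, with bars for the mean of 3 libraries and symbols for each replicate. HOXD13 and HOXD10 stand highest, and in the HOXA cluster HOXA10 alone rises above 10 CPM.

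MYC, a regulator of growth, measured 389.8, 377 and 374 CPM, while its relatives MYCN (0.265, 0.251 and 0.608) and MYCL (1.59, 0.86 and 0.478) were low. SOX2 and LIN28B (48.8, 51.9 and 58.2), an inhibitor of let-7 maturation, were present, and NANOG and LIN28A had no count. Genes of small RNA processing were all expressed, led per kb by XPO5, the exporter of precursor miRNAs, at 172, 174 and 172, TARBP2 (64.5, 68.3 and 82.1) and DGCR8 (78.4, 72.1 and 105). DICER1 measured 149.8, 146 and 152 and DROSHA 87.8, 81 and 81.3, and AGO3 (70.9, 72.3 and 80.2) was the lowest per kb. Among long non-coding RNAs the 5 highest by CPM were NORAD (488, 501 and 493), which binds Pumilio proteins, the snoRNA hosts SNHG29 (417, 452 and 441) and GAS5 (369, 378 and 369.6), OIP5-AS1 (351, 354 and 289) and SNHG16 (219, 227 and 305). The nuclear RNAs MALAT1 (83, 57 and 50.8) and NEAT1 (77.5, 70.1 and 67.8) stood below them by CPM, and the imprinted MEG3 had no count.

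Antigen presentation was uneven. B2M, the light chain of MHC class I, measured 703, 726 and 664 CPM and HLA-E 113, 111 and 83.3. HLA-B was far lower at 6.28, 6.73 and 5.17, as was the peptide transporter subunit TAP1 at 4.08, 3.98 and 2.69. HLA genes are polymorphic and alike, so their counts depend on how well the cells' alleles matched the reference. Of class II, HLA-DRA and HLA-DRB1 had no count and CD74, the invariant chain, had 3 or fewer. Of 21 interferon response genes 15 were expressed (71.4%, beside 61.1% of protein-coding genes). Per kb ISG15 (24.3, 26.9 and 22.5), BST2 (25.9, 27 and 24.4) and EIF2AK2 (149, 153 and 137) led, and MX1, OAS2 and CXCL10 had no count.

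Cancer-testis antigens, which are normally restricted to germ cells, were mostly below 1 CPM. Of 61 such genes 11 were expressed (18%, beside 61.1% of protein-coding genes) and 28 had 3 counts or fewer in every library, beside 26.9%. Of the 61, 3 reached 100 CPM, beside 11.2% of protein-coding genes, and 5 lay above percentile 90 of protein-coding genes per kb. XAGE1A measured 203, 209 and 163 CPM, XAGE1B 213, 219 and 181 and PRAME 272, 268 and 257, all above percentile 90 per kb. XAGE1A and XAGE1B are near-identical copies, as are MAGEA3 (57.1, 51.6 and 61) and MAGEA6 (50.3, 48.1 and 56.1), and how reads were divided between copies is uncertain. Other members were expressed at a low level, with MAGEA1 at 3.52, 3.04 and 4.43, MAGEC2 at 4.08, 3.4 and 3.61 and CTAG2 at 1.74, 1.36 and 1.04. XAGE2, XAGE5 and SSX5 had no count. Of 16 stress genes 15 were expressed. ATF4, the factor of the integrated stress response, measured 456, 433 and 408, ASNS, its target asparagine synthetase, 120.5, 127 and 83.6, and the immediate early gene EGR1 50.6, 44.3 and 23.2, and FOSB was the lowest at 0.756, 0.645 and 1.26. In this list 10 of 15 expressed genes had a 1.5-fold range over 3 libraries (background 14.1%), and none did without replicate 3 (background 3.24%).

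Differences of gene classes between libraries are given as the median over expressed members of log2(library CPM / mean CPM of the 3 libraries). Over all expressed protein-coding genes this median was 0.01, 0.01 and -0.02. Of 28 lists with at least 5 expressed members, 12 deviated by 0.1 or more in any library, and 4 of these are described here. Others in replicate 3 included the repressed list (-0.21), G1 control (0.15), MHC genes (-0.13) and mitosis (0.11). DNA replication genes deviated by -0.09, -0.14 and 0.22, and 33 of 37 were highest in replicate 3, as were 38.8% of all expressed protein-coding genes. Mitochondrial mRNAs deviated by -0.21, -0.02 and 0.18, with all 13 highest in replicate 3. Chaperones deviated by -0.06, -0.04 and 0.10, with 24 of 25 highest there. Ribosomal proteins deviated the other way, by 0.04, 0.07 and -0.13, and 72 of 84 were lowest in replicate 3, as were 46.5% of all. None of the 84 reached a 1.5-fold range. It was reached by 3 of 37 replication genes, 3 of 13 mitochondrial mRNAs and 2 of 25 chaperones, beside 14.1% of expressed protein-coding genes. All of these replication genes, mitochondrial mRNAs and chaperones were above 10 CPM, and of all genes at that level 6.44% reached it. Without replicate 3 no gene of these classes reached it, beside 3.24% of expressed protein-coding genes. With replicates 1 and 2 alone, the median of log2(replicate 2 / replicate 1) was -0.033 for DNA replication genes, 0.17 for mitochondrial mRNAs, -0.0038 for chaperones and 0.03 for ribosomal proteins, beside 0.0029 for all expressed protein-coding genes. The cause of these shifts was not tested.

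Lipid synthesis genes differed in the same library. After SCD, the stearoyl-CoA desaturase, had been seen at 2295, 2394 and 929.7 CPM, a list of 30 genes of sterol and fatty acid synthesis was drawn up. All 30 were expressed, 29 were lowest in replicate 3, and 16 had a 1.5-fold range over 3 libraries (background 14.1%) and none without replicate 3 (background 3.24%). All 30 had a mean above 10 CPM, and 6.44% of all genes at that level had such a range over 3 libraries. Their summed level was 10508, 10661 and 6267 CPM and their median deviation 0.18, 0.18 and -0.43. HMGCS1, which makes the precursor HMG-CoA, measured 297, 318 and 163, FASN, the fatty acid synthase, 1321, 1314 and 848 and INSIG1, a sterol sensor of the endoplasmic reticulum, 92, 95.3 and 50.9. In each of these, replicates 1 and 2 lay close together and replicate 3 below. Single genes seen in the same way to be higher in replicate 3 were PGF, placental growth factor, at 19.6, 19 and 63.3, the kinase SGK1 at 11.6, 9.21 and 27.3, CRIP2 at 186, 180.3 and 388 and IGFBP4 at 27.3, 25.6 and 52.4.

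**Figure D4:**
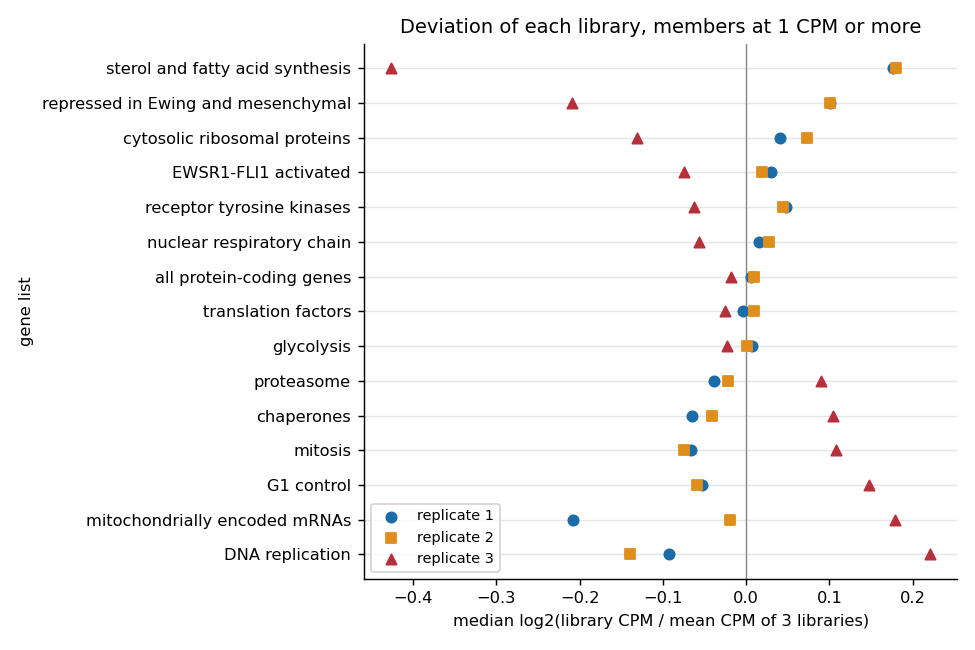
Median over expressed members of log2(library CPM / mean CPM of 3 libraries) for 14 gene lists and all protein-coding genes, with 1 symbol for each replicate and a line at 0. Replicates 1 and 2 lie together for most lists and replicate 3 lies apart, lowest for sterol and fatty acid synthesis and highest for DNA replication.

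The 5 protein-coding genes with the widest range among those at 10 CPM or more overlap other genes. TOMM6, a subunit of the mitochondrial import pore, measured 2.31, 92.5 and 4.69 CPM, and the readthrough gene ATP6V1G2-DDX39B 3.33, 137 and 3.04. Both were high in replicate 2 alone. Summed with the genes that share their exons, the levels were 129.2, 126 and 123 CPM around TOMM6 and 392, 381 and 416 CPM around ATP6V1G2-DDX39B, with ranges of 1.05-fold and 1.09-fold. TRAPPC5, a trafficking subunit, measured 18.6, 17.1 and 1.3, and 18.6, 17.1 and 15.9 with its overlapping gene. GPRASP2 measured 22.5, 24.4 and 1.52, and 40.9, 47.2 and 12.6 with the genes that overlap it. ATXN7, a subunit of the SAGA complex, measured 11.5, 17.6 and 1.82, and 43.8, 47.7 and 33.1 with THOC7. The range of the sum was below 1.5-fold for 4 of the 5 genes, 1.18-fold for TRAPPC5 and 1.44-fold for ATXN7 among them, and was 3.75-fold for GPRASP2. Among expressed protein-coding genes with more than 50% of their exon bases in another gene, 46.4% (255 of 550) had a 1.5-fold range, beside 13.4% (751 of 5611) of those with none. With replicates 1 and 2 alone the shares were 27.8% and 1.94%. The most even genes were NONO (956, 953 and 954 CPM), an RNA-binding protein of paraspeckles, LMF2 (31.6, 31.6 and 31.5), ACTN4 (256, 257 and 256), KIAA1217 (44.8, 44.7 and 44.8) and EIF4G3 (235, 234 and 234). Of the 14 usual reference genes none reached a 1.5-fold range, beside 6.44% of all genes at a mean of 10 CPM or more. These 14 genes are too few to be set apart from that share. RPLP0 was lower and ACTB (1439, 1405 and 1692) higher in replicate 3.

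The share of genes expressed differed between broad classes of promoter sequence. The 11120 protein-coding genes with a single RefSeq start were grouped by the ratio of observed to expected CpG over 300 bases, from 250 before to 50 after the start. At a ratio up to 0.25, 215 of 1843 genes were expressed (11.7%), and between 0.25 and 0.5, 24.6% of 1352. The share was 63.7% of 1935 between 0.5 and 0.75, 83.1% of 4610 up to 1, and 88.4% of 1380 above 1. It rose with each class. Of 533 genes with TATAAA in the 50 bases before the start, 22.3% were expressed, beside 63.4% of the others. With GGAAGGAA on either strand, 56.6% of 401 genes were expressed, beside 61.6%. Of genes with a pyrimidine start as defined above, 74.8% of 519 were expressed, beside 60.8%. These shares are descriptions of 1 cell line, and the classes overlap.

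**Figure D5:**
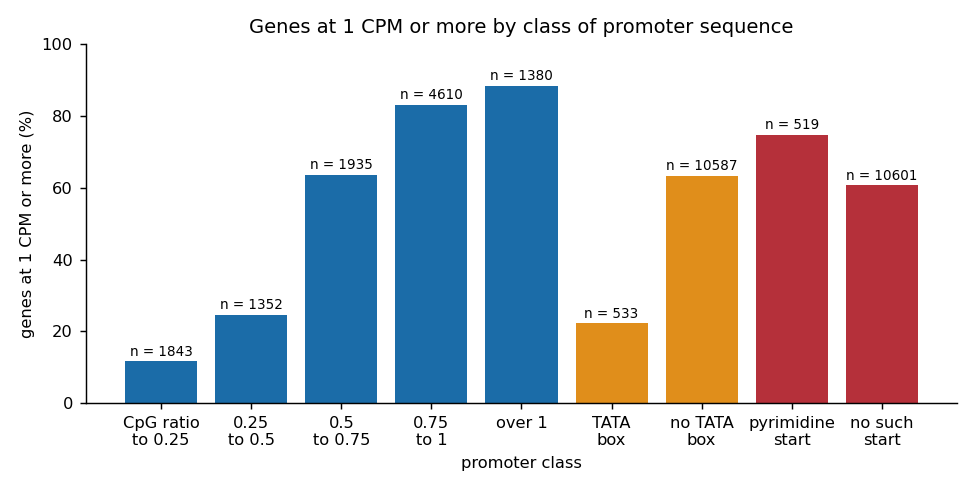
Percent of protein-coding genes at 1 CPM or more by class of promoter sequence, with n for the genes in each class: 5 classes of the observed to expected CpG ratio (blue), with and without a TATA box (orange), and with and without a pyrimidine start (red). The share rises from 11.7% to 88.4% over the CpG classes.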

How the data were processed

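RNA was measured in 6 TC71 libraries, and the 3 shNTC+Dox libraries were used here. The authors deposited 1 table of whole-number counts per gene for hg38, with Ensembl gene identifiers. The paper's methods name hisat2 and StringTie, while the submitters' processing notes name STAR 2.7.3a and DESeq2, and which made these counts is not given in the sources used here. Reads shared by overlapping or near-identical genes may have been divided in a way that differs between libraries. Totals of 22711235 to 28203023 counts set the precision.

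Counts were scaled by TMM in edgeR 4.0.16 (R 4.3.3). The exon length of a gene was the union of its GENCODE 44 exons, which overstates the mRNA of genes with many isoforms, and 60357 of 60676 identifiers matched. Percentiles are among 19892 protein-coding genes. Dispersion used genes with at least 10 counts in every library. The estimate was also run on simulated counts, which checks the code and not the value found in these libraries. No group comparison and no significance test was run. Genes at 3 counts or fewer in every library are given as such. Promoters are from RefSeq on GRCh38.p14.

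Some genes that the rule below names are not reported here. Genes were named by a rule: the markers, and for each of 43 lists the 3 highest per kb, the lowest and the undetected members, with the 10 highest genes overall by each scale, the 5 highest long non-coding RNAs and the 5 widest and 5 most even genes at 10 CPM or more. Others were named after their values were seen. The members and lists were chosen with earlier results of these data known.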

Additional observations from a re-analysis of the deposited data

How the results depend on the processing

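No paired analysis was possible because a single group was described and no groups were compared. The cause of the changes below was not tested except where the setting itself fixes it. Leaving out 1 library gave a biological coefficient of variation of 7.8% to 17.6%, the lowest without replicate 3. The count of genes with a 1.5-fold range was 603 to 1802, again lowest without replicate 3. Of 28 lists with at least 5 expressed members, 0 (without replicate 3) to 5 had a median that deviated by 0.1 or more in any library, where 3 libraries gave 12. Both counts are stricter with 2 libraries, because a range cannot be wider there and a difference of the same size leaves each library nearer to the mean. Leaving out 1 library also gave 14144 to 14178 genes at 1 CPM and a share of the top 100 genes of 19.3% to 19.8%. Median percentiles were 88.0 to 89.96 for the activated list and 49.0 to 49.1 for the repressed list, and 22.0% to 22.7% of TATAAA genes were expressed. The coefficient was 18.3% with no filter on low counts, 12.01% with at least 100 counts in every library and 7.43% as DESeq2's median gene-wise dispersion. The 1.5-fold range was met by 6867 genes with a count in every library and by 636 at 10 CPM or more. Without the mitochondrial genome the top 100 genes took 17.6%. By the longest transcript, without length and among expressed genes alone, the percentile of the activated list was 86.2, 82.7 and 82.5 and that of the repressed list 49.8, 49.9 and 23.5, the last because silent genes leave the ranking. Counting TATAAA before any listed start gave 28.6%, a setting chosen after the data were seen. DESeq2's size factors in place of TMM were tried on the count of expressed genes, the coefficient, the 1.5-fold count, both list percentiles and the count of deviating lists, and moved none of these by more than its spread between libraries, 5% of its size, or 1.5 times for a count.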

Other observations

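Pseudogenes that copy abundant transcripts carried counts in all 3 libraries. EEF1A1P5 measured 1767, 1690.4 and 1304 CPM and EEF1A1P6 997, 956 and 745 CPM. MTCO1P12, a nuclear copy of the mitochondrial MT-CO1, measured 538, 646 and 699 CPM. Each followed the order of its parent gene over the 3 libraries, and reads of the parent counted for the copy cannot be told apart from expression of the copy. PRRC2B, at 444, 466 and 422 CPM and thus above 100 CPM in each library, had an identifier with no match in GENCODE 44, so no level per kb is given for it.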
